A study of Mus musculus with 16 samples.

Results

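The 10 genes described here, each with 1 chosen probe set, are regulators of mitochondrial gene expression: the coactivators Ppargc1a and Ppargc1b, the nuclear receptors Ppara, Esrra, Esrrb and Esrrg, the transcription factor Nrf1, and the mitochondrial factors Tfam, Tfb1m and Tfb2m. They were taken by gene symbol, 10 of the 19938 genes with a probe set of their own, and for each symbol the probe set with the highest mean over the 16 arrays was used. Hearts came from male C57BL/6 mice operated on at 8 to 10 weeks of age and collected 4 weeks after transverse aortic constriction (TAC, in which a ligature tied round the aortic arch makes the heart pump against raised pressure) or sham surgery. The 4 groups held 4 samples each, with 1 array per sample: control sham, control TAC, Zbtb17 conditional knockout (cKO) sham and cKO TAC. The labels give neither the Cre line or cell type of the deletion nor the genotype of the controls beyond that word. Zbtb17 encodes the transcription factor Miz1.

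Mitochondria are built from proteins encoded in 2 genomes, and these regulators couple them. PGC-1 coactivators, encoded by Ppargc1a and Ppargc1b, bind no DNA themselves and act through receptors such as PPAR alpha and the estrogen-related receptors, which switch on fatty acid oxidation and respiratory chain genes, and through NRF1, which drives nuclear genes of the respiratory chain and of mitochondrial transcription. TFAM, TFB1M and TFB2M are imported into the mitochondrion, where TFAM packages and bends mitochondrial DNA, TFB2M opens the promoter for the mitochondrial RNA polymerase, and TFB1M methylates the ribosomal RNA of the small mitochondrial ribosomal subunit. The heart depends on this network because it takes most of its energy from fatty acid oxidation.

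All values are log2 array signals, so a difference of 1 is a doubling of signal, and signals of different genes are not compared because each probe set has its own response. The deposited values ran from 2.34 to 14.35, array medians from 4.85 to 4.97, and the Spearman correlation between arrays from 0.972 to 0.987. All 10 regulators lay above the low-signal limit of 4.37, with means over the 16 arrays between 5.94 for Nrf1 and 10.19 for Ppargc1a. The Zbtb17 probe set read 6.36 ± 0.13 (SD, n = 4) after sham and 6.45 ± 0.11 after TAC in controls, and 6.52 ± 0.07 and 6.5 ± 0.02 in mice labelled cKO. It was thus not lower under the knockout label and cannot check the genotype, since no source used here says which part of the gene was deleted; every cKO comparison rests on the labels. Ventricular markers were high on every array, with a list mean of 12.80 to 13.10. One of them, Myl2, the ventricular myosin light chain, fell in the cKO by 0.37 after sham and by 0.48 after TAC on the log2 scale (limma, adjusted p = 0.0401 and 0.00434), with every cKO heart at 12.55 to 12.89 and every control heart at 13.20 to 13.27. The sham call was lost with median centring and the replicate block, among others. The TAC call was lost without the mean-variance trend and from only the groups compared, where 0 probe sets passed. It was also lost without the high-Myl7 or the high-Atf3 arrays described next. The atrial marker Myl7 exceeded 6 on 6 arrays (replicates 1 and 2 of both TAC groups, replicate 3 of control sham and replicate 2 of cKO sham). The stress gene Atf3 exceeded 8 on 3 sham arrays (control sham replicates 3 and 4, cKO sham replicate 1). Since whole hearts or heart pieces were measured, fewer cells of a type and less RNA per cell cannot be told apart.

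**Figure D1:**
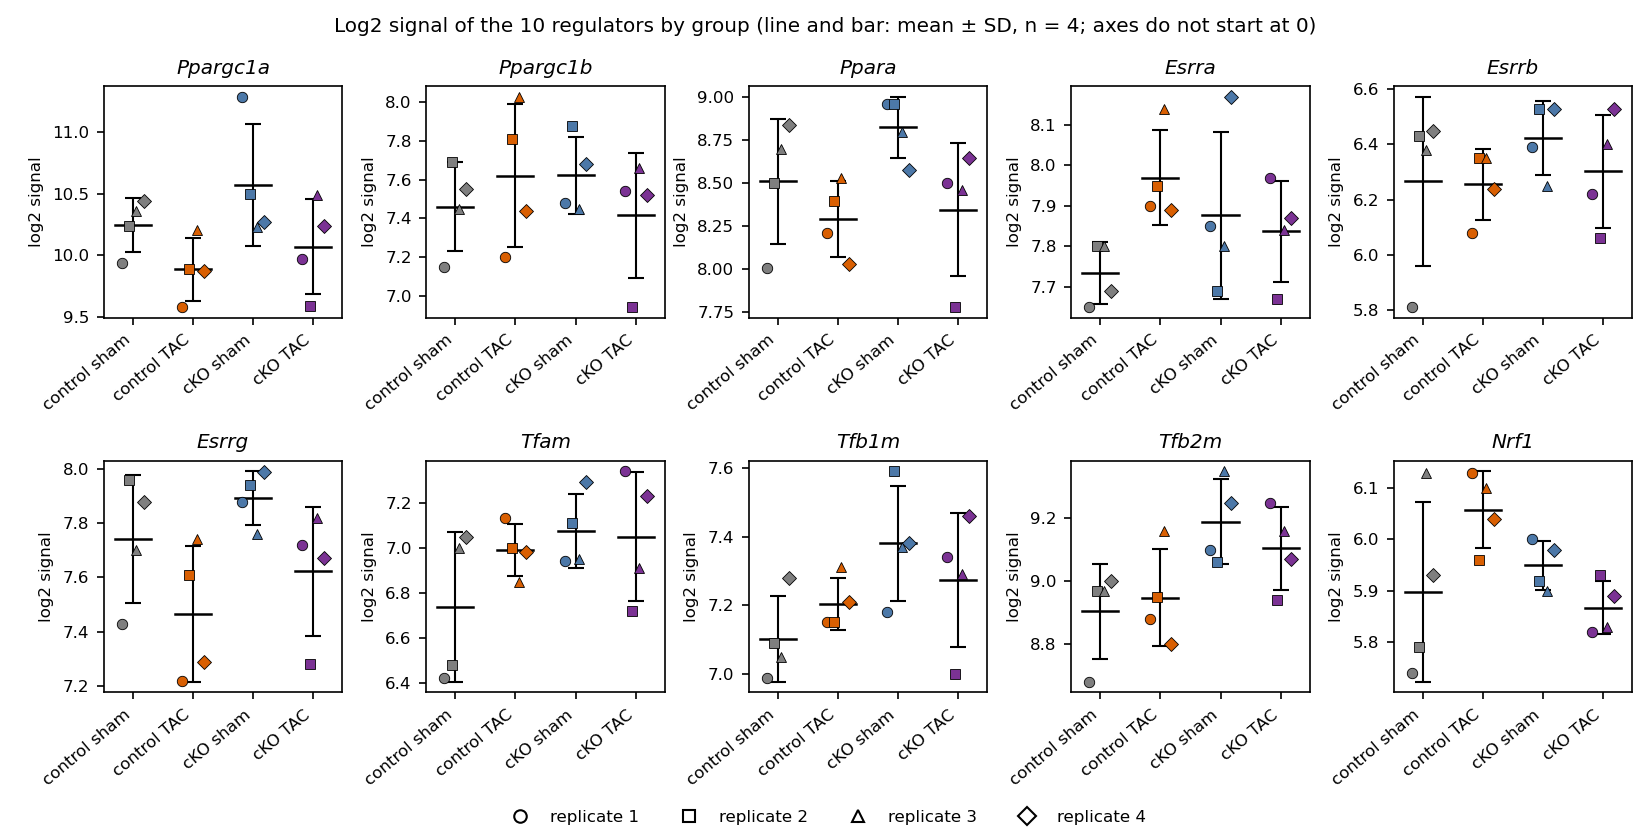
Log2 signal of each regulator on each array, by group; symbols mark the replicate number, and the line and bar give the mean ± SD of 4 samples. Ppargc1a lies highest on cKO sham replicate 1 (11.29), and control sham replicate 1 is the lowest of its group in all 10 panels.

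Ppargc1a encodes PGC-1 alpha, the inducible coactivator of the family. Its log2 signal was 9.94, 10.24, 10.36 and 10.44 in the control sham hearts and 9.58, 9.89, 10.21 and 9.87 in the control TAC hearts. In the cKO it was 11.29, 10.50, 10.23 and 10.27 after sham and 9.97, 9.59, 10.49 and 10.24 after TAC. The TAC hearts of each genotype included the lowest values, and sham and TAC values overlapped within each genotype; the control TAC hearts all lay below the cKO sham hearts. By mean the groups ran from cKO sham (10.57 ± 0.49) through control sham (10.25 ± 0.22) and cKO TAC (10.07 ± 0.39) to control TAC (9.89 ± 0.26), and each neighbouring pair differed by less than the larger of their SDs. A second Ppargc1a probe set, with a mean 1.16 lower, followed the first with r = 0.944 over the 16 arrays. The promoter window of the only Ppargc1a start in the RefSeq table is shown because Ppargc1a varied together with Ppara across hearts, described further on. No link between that and the sequence was tested. The window lies inside the span of the gene (chr5:51454249-52115853), so other starts of the gene were not searched. It is 250 bases, chr5:51567726-51567975, minus strand, GRCm38.p6, with the letters CGTCA, which is TGACG read on the other strand, in capitals.
Ppargc1a: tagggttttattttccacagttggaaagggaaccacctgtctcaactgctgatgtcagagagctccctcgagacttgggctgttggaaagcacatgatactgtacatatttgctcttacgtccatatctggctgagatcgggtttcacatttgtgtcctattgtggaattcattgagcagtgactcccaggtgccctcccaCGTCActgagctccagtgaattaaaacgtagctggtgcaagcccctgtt

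Ppargc1b encodes PGC-1 beta, the coactivator relative. It read 7.15, 7.69, 7.45 and 7.55 in control sham, 7.20, 7.81, 8.03 and 7.44 in control TAC, 7.48, 7.88, 7.45 and 7.68 in cKO sham, and 6.94 to 7.66 (median 7.53) in cKO TAC. The 4 group means lay between 7.42 and 7.62, a span smaller than the SD of the control TAC group (0.37).

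Ppara encodes the receptor that fatty acids activate. Control sham hearts read 8.01, 8.50, 8.70 and 8.84, and control TAC hearts 8.21, 8.40, 8.53 and 8.03. Hearts of the cKO read 8.96, 8.96, 8.80 and 8.58 after sham and 8.50, 7.78, 8.46 and 8.65 after TAC. The cKO sham group had the highest mean, 8.83 ± 0.18, against 8.51 ± 0.36 in control sham, 8.35 ± 0.39 in cKO TAC and 8.29 ± 0.22 in control TAC, and neighbours in that order did not differ beyond their spread. The Ppara promoter (250 bases, chr15:85735526-85735775, plus strand, GRCm38.p6, from RefSeq) carries the full palindromic NRF1 site starting 31 bases before the start and TGACG 222 bases before it, both in capitals.
Ppara: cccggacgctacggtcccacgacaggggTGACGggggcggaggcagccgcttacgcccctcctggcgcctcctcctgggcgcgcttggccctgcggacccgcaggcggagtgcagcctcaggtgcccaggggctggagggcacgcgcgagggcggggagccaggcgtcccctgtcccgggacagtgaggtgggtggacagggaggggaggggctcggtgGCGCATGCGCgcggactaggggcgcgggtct

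The estrogen-related receptors are orphan receptors that share the response element AAGGTCA. Esrra read 7.65, 7.80, 7.80 and 7.69 in control sham and 7.90, 7.95, 8.14 and 7.89 in control TAC, without overlap. In the cKO the Esrra groups overlapped, with 7.85, 7.69, 7.80 and 8.17 after sham and 7.97, 7.67, 7.84 and 7.87 after TAC. Esrrg, the family member that is abundant in heart and other oxidative tissues, read 7.43, 7.96, 7.70 and 7.88 in control sham, 7.22, 7.61, 7.74 and 7.29 in control TAC, 7.88, 7.94, 7.76 and 7.99 in cKO sham, and 7.72, 7.28, 7.82 and 7.67 in cKO TAC. The cKO sham values of Esrrg lay in a band of SD 0.10, and those of the other 3 groups were spread with SDs of 0.24 to 0.25. Esrrb had group means of 6.26 to 6.43, closer together than the SD of control sham (0.31).

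Nrf1, the nuclear respiratory factor, read 5.74, 5.79, 6.13 and 5.93 in control sham and 6.13, 5.96, 6.10 and 6.04 in control TAC. It read 6.00, 5.92, 5.90 and 5.98 in cKO sham and 5.82, 5.93, 5.83 and 5.89 in cKO TAC. The control TAC group was the highest, at 6.06 ± 0.08, and did not overlap cKO TAC, at 5.87 ± 0.05.

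Tfam read 6.42, 6.48, 7.0 and 7.05 in control sham, 7.13, 7.0, 6.85 and 6.98 in control TAC, 6.94, 7.11, 6.95 and 7.29 in cKO sham, and 7.34, 6.72, 6.91 and 7.23 in cKO TAC. The low mean of control sham, 6.74 ± 0.33, came from replicates 1 and 2, and the other 3 means lay between 6.99 and 7.07. Tfb1m read 6.99, 7.09, 7.05 and 7.28 in control sham, 7.15 to 7.31 in control TAC, 7.18, 7.59, 7.37 and 7.38 in cKO sham, and 7.0 to 7.46 in cKO TAC. Tfb2m read 8.68, 8.97, 8.97 and 9.0 in control sham, 8.88, 8.95, 9.16 and 8.80 in control TAC, 9.10, 9.06, 9.35 and 9.25 in cKO sham, and 9.25, 8.94, 9.16 and 9.07 in cKO TAC. For Tfb2m every cKO sham heart lay above every control sham heart. A second Tfb2m probe set differed from the first by at most 0.02 on any array, so the pair is 1 measurement and its share from another locus is uncertain.

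What pressure overload does to these regulators in control hearts was asked first. Esrra was higher in all 4 control TAC hearts than in any control sham heart, by 0.24 ± 0.10 (log2 difference ± SE of the limma fit; adjusted p = 0.569), 1.18 times the signal. Esrrg was lower by a log2 difference of -0.28 ± 0.14 (adjusted p = 0.621), and Nrf1 higher by 0.16 ± 0.08 (adjusted p = 0.625). None of the 10 regulators passed the limma threshold of adjusted p 0.05 over 21333 probe sets, and 0% of all probe sets did. At an unadjusted p under 0.05, 1 regulator was counted, against 8.32% of all probe sets. Groups did not overlap, with TAC higher, for 1 of 10 regulators and for 2.27% of all probe sets. Ppargc1a, named after its values were seen, had -0.36 ± 0.22 (adjusted p = 0.688), and -0.48 by its second probe set. Ppara, also named after its values were seen, had -0.22 ± 0.19 (adjusted p = 0.774) and turned to 0.04 when the 3 high-Atf3 arrays were left out. Leaving them out kept only control sham replicates 1 and 2 as the baseline, and replicate 1 was the lowest of its group for all 10 regulators. The positive differences numbered 6 of 10, against 54.5% of all probe sets, with a median of 0.07 beside 0.015 for all probe sets; the median was -0.0025 without control TAC replicate 3 and 0.15 when the high-Atf3 arrays were left out. The Nrf1 difference was 0.29 when the high-Atf3 arrays were left out, 0.25 without the 6 arrays with Myl7 above 6 and 0.09 with array weights. Ppargc1a was then at -0.20 and -0.17 in the first and second of these.

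The same surgery in cKO hearts gave negative differences for 10 of 10 regulators, where 47.5% of all probe sets were negative. Of the cell type markers, 0 of 8 ventricular genes were positive (median -0.08), against 7 of 8 endothelial, 8 of 8 fibroblast and 8 of 8 macrophage genes; none of these passed the threshold, and their part in the regulators' differences was not tested. Ppargc1a was lower by a log2 difference of -0.50 ± 0.22 (adjusted p = 0.728), or 0.707 times the sham signal, Ppara by -0.48 ± 0.19 (adjusted p = 0.726) and Esrrg by -0.27 ± 0.14 (adjusted p = 0.744). No regulator and 0% of all probe sets passed the limma threshold, and an unadjusted p under 0.05 was reached by 2 regulators and by 6.78% of all probe sets. The other 7 differences lay between -0.21 and -0.02. The median of the 10 was -0.12 beside 0.0075 for all probe sets, -0.05 without cKO TAC replicate 2 and -0.18 without cKO TAC replicate 4. Single arrays moved these values. Ppargc1a was at -0.26 without cKO sham replicate 1, the heart with the highest Ppargc1a and with Atf3 at 9.58. Ppara was at -0.29 and Esrrg at -0.16 without cKO TAC replicate 2. Without the 6 arrays with Myl7 above 6, 4 of 10 differences were positive, Ppargc1a was at -0.23, Ppara at -0.23 and Esrrg at -0.13. Leaving out cKO TAC replicate 2 or cKO sham replicate 4 left 2 of 10 positive.

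Averaged over genotype, with 8 TAC against 8 sham hearts, Ppargc1a, Ppara and Esrrg were the regulators with an unadjusted p under 0.05, a count of 3 against 12% of all probe sets. Ppargc1a differed by -0.43 ± 0.16 (95% confidence interval -0.77 to -0.09; adjusted p = 0.314), and by -0.51 (adjusted p = 0.267) with its second probe set. Ppara differed by -0.35 ± 0.14 (interval -0.64 to -0.06; adjusted p = 0.332) and Esrrg by -0.27 ± 0.10 (interval -0.49 to -0.06; adjusted p = 0.311). None of the 10 passed the limma threshold and neither did any of the 21333 probe sets (0%). The differences of the other 7 regulators lay between -0.07 and 0.12. Tfam, at the upper end and named after its values were seen, had an interval of -0.12 to 0.35, and its TAC difference was 0.25 in control and -0.02 in cKO hearts. Without the 6 arrays with Myl7 above 6, the Ppargc1a difference was -0.20 and that of Ppara -0.20, and leaving out the high-Atf3 arrays gave -0.23 and -0.20. The latter fit kept only replicates 1 and 2 of the control sham group. The share that atrial tissue or stress at collection had in these differences was not tested.

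**Figure D2:**
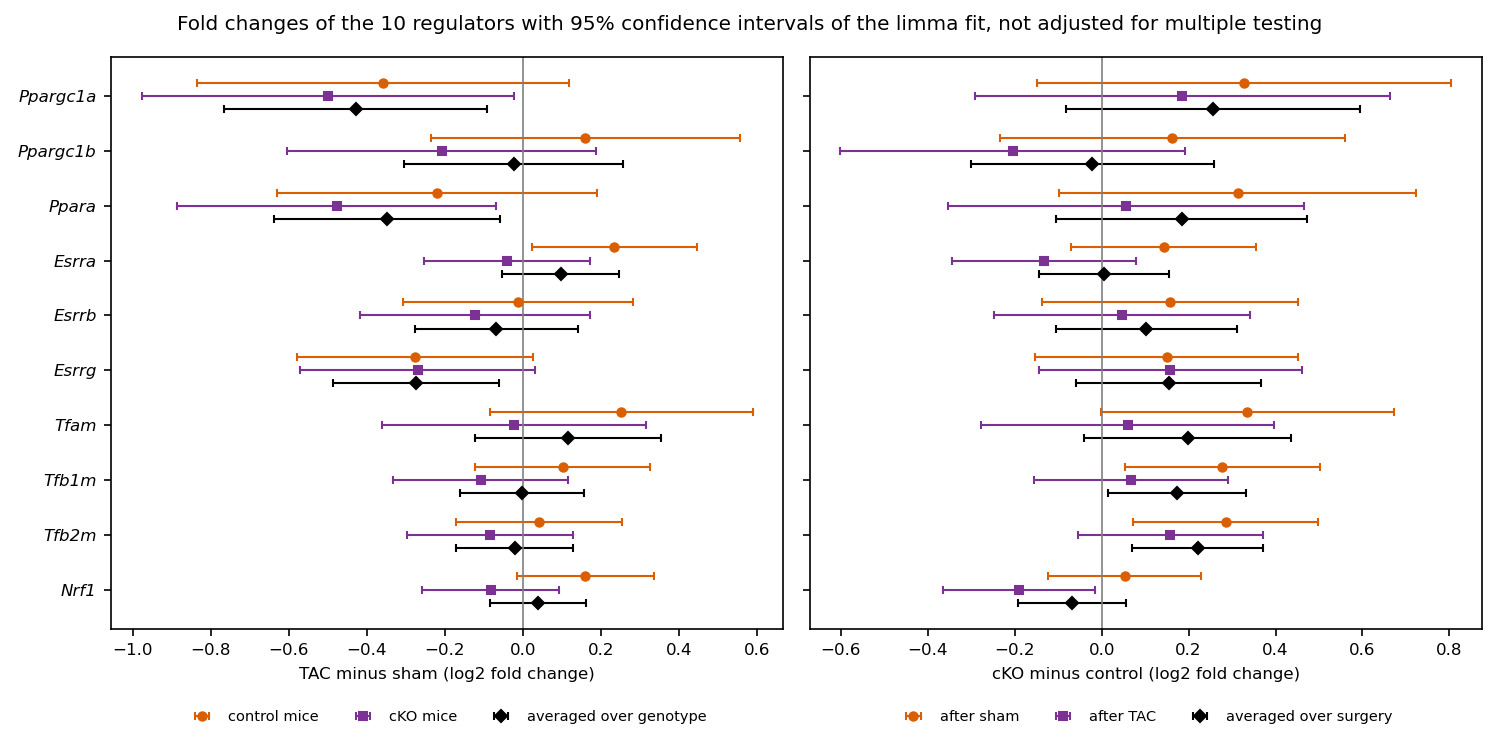
Log2 fold changes of the 10 regulators for TAC minus sham (left) and cKO minus control (right), with 95% confidence intervals of the limma fit. Among the averaged intervals (black), those of Ppargc1a, Ppara and Esrrg end below 0 on the left, and on the right those of Tfb1m and Tfb2m start above 0; no adjusted p passed 0.05.

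The genotypes were compared next without load, in sham hearts, which are also the baseline of the TAC comparisons, so these values are not independent of those above. All 10 regulators had a positive difference between cKO and control, against 50.1% of all probe sets, with a range of 0.05 to 0.34 and a median of 0.22 beside 0.0025 for all probe sets. In the same comparison 7 of 8 ventricular markers were positive (median 0.09) and 0 of 8 endothelial markers were (median -0.15); among these 16 genes Myl2 alone passed the threshold, and the part of these cell types in the regulators' differences was not tested. The regulators of smallest p were the mitochondrial factors. Tfb2m was higher by 0.29 ± 0.10 (adjusted p = 0.382), 1.22 times the signal. Tfb1m was higher by 0.28 ± 0.11 (adjusted p = 0.389) and Tfam by 0.34 ± 0.16 (adjusted p = 0.471). Ppargc1a at 0.33 ± 0.22 and Ppara at 0.31 ± 0.19, named after their values were seen, differed as much with larger errors. No regulator passed the limma threshold, which 0.0234% of all probe sets did. An unadjusted p under 0.05 was reached by 2 of 10, beside 10.7% for all probe sets, and groups did not overlap, with cKO higher, for 1 of 10, beside 2.95% for all probe sets. Control sham replicate 1, the lowest of its group for all 10 regulators, took part in every one of these differences. Without it the median was 0.13, 9 of 10 differences were positive, Tfb2m was at 0.21 and Tfam at 0.23. Tfam was at 0.67 when the high-Atf3 arrays were dropped, which left only control sham replicates 1 and 2 to stand for the controls.

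Under load, cKO and control hearts differed in 7 positive and 3 negative values, with 47.9% positive among all probe sets and a median of 0.06 beside -0.005 for all probe sets. That median was -0.014 without cKO TAC replicate 4 and 0.16 without cKO TAC replicate 2. Nrf1 was lower in every cKO TAC heart than in any control TAC heart, by a log2 difference of -0.19 ± 0.08 (adjusted p = 0.634), and groups failed to overlap in that direction for 1 of 10 regulators and 1.89% of all probe sets. The difference of Tfb2m was 0.16 ± 0.10 (adjusted p = 0.761) and that of Esrra -0.13 ± 0.10 (adjusted p = 0.807). None passed the limma threshold, which 0.00469% of all probe sets did, and 1 of 10 had an unadjusted p under 0.05, beside 7.58% for all probe sets. Esrra was at -0.08 without control TAC replicate 3 and also without cKO TAC replicate 2. Tfb1m (0.07) and Tfam (0.06), named after their values were seen, were closer to 0 here than in the sham hearts, and each moved with single arrays. Tfam turned to -0.04 without cKO TAC replicate 1, and Tfb1m was at 0.005 without cKO TAC replicate 4 and 0.16 without cKO TAC replicate 2. The 7 positive values became 4 without cKO TAC replicate 4.

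Averaged over surgery, Tfb2m differed by 0.22 ± 0.07 (interval 0.07 to 0.37; adjusted p = 0.196), Tfb1m by 0.17 ± 0.07 (interval 0.01 to 0.33; adjusted p = 0.295) and Tfam by 0.20 ± 0.11 (interval -0.04 to 0.44; adjusted p = 0.424), all higher in the cKO. None of the 10 passed the limma threshold, beside 0.0188% of all probe sets, and 2 of 10 had an unadjusted p under 0.05, beside 14.9% for all probe sets. The Tfb2m difference of 0.22 corresponds to 1.17 times the control signal and lay between 0.18 and 0.28 over 26 alternatives. Over the same alternatives Tfb1m lay between 0.14 and 0.24 and Tfam between 0.14 and 0.36. The value of 0.36 came when the high-Atf3 arrays were left out, which kept only replicates 1 and 2 of the control sham group.

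Whether TAC acted differently in the genotypes was tested as an interaction, the cKO difference minus the control difference. The regulators of smallest p were Nrf1 at -0.24 ± 0.12, Esrra at -0.28 ± 0.14 and Tfb1m at -0.21 ± 0.15, each with an adjusted p of 1 in the limma fit. For Nrf1 the TAC difference was 0.16 in control and -0.08 in cKO hearts. For Esrra it was 0.24 and -0.04. None of the 10 passed the threshold, as 0% of all probe sets did, and none had an unadjusted p under 0.05, beside 3.70% of all. The 9 negative values of 10 (52.8% of all probe sets) rest on the same 16 hearts as the comparisons above and add no independent evidence. Without cKO TAC replicate 2 the Tfb1m value was -0.12 and the median of the 10 was -0.10 in place of -0.23. Without the 6 arrays with Myl7 above 6, Tfb1m was at -0.08 and the median at -0.15. Esrra was at -0.18 without cKO sham replicate 4.

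**Figure D3:**
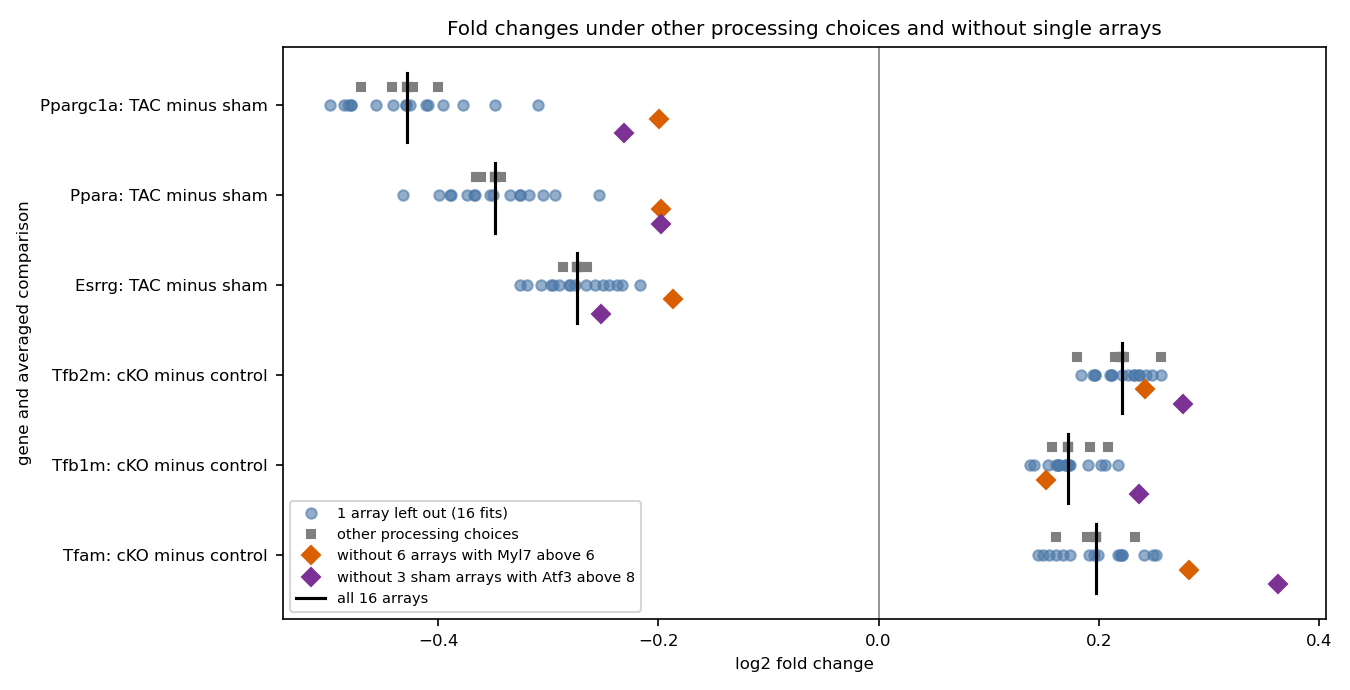
Averaged log2 fold changes of 6 regulators under other choices: blue circles leave out 1 array, grey squares change the normalization, filter, weights or block, and diamonds leave out the 6 high-Myl7 (orange) or the 3 high-Atf3 arrays (purple). Every value keeps the sign of the full fit (black line), and Ppargc1a moves from -0.43 to -0.20 and -0.23 in the diamonds.

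Several hearts stood apart for the regulators as a set. Control sham replicate 1 was the lowest of its group in 10 of 10 regulators, where it was lowest for 31.6% of all probe sets, and its regulators lay on average -0.34 from their 16-array means. Replicate 2 of cKO TAC was the lowest in 9 of 10, where it was lowest for 31.5% of all, with an average of -0.33. Nrf1 was the exception, where that heart was the highest of its group (5.93). Replicate 3 of control TAC was the highest in 8 of 10, where it was highest for 26.6% of all. The limma quality weights of the 2 low arrays were 0.449 and 0.659; control sham replicate 2, with 5 of 10 regulators below their means, had 0.591.

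The mean of the macrophage markers was the highest of its group on both low hearts, while fibroblast and atrial markers were high only on cKO TAC replicate 2. On cKO TAC replicate 2 the mean of 8 fibroblast markers was 9.11 (8.11 to 8.62 on the rest of the group), that of 8 macrophage markers 7.82 (6.99 to 7.31) and that of 6 atrial markers 8.66 (6.47 to 7.33), while the 8 ventricular markers averaged 12.80 (12.96 to 13.08). On control sham replicate 1 the ventricular mean was 12.89, the lowest of its group. The macrophage mean of 7.28 and the endothelial mean of 9.13 (8.88 to 9.05 on the rest) were the highest of that group. The fibroblast mean (8.07) was not, and the atrial (6.49) and smooth muscle and pericyte (8.41) means were the lowest. Pressure overload groups had higher macrophage means (7.33 ± 0.32 in control TAC against 6.94 ± 0.32 in control sham; 7.29 ± 0.38 against 6.85 ± 0.11 in the cKO), and 0 of 8 macrophage genes passed the limma threshold in either. One atrial marker, Bmp10, stayed below the low-signal limit (3.44 to 3.81). Fibroblast genes had positive TAC differences for 8 of 8 in both genotypes, with 0 past the threshold. The part of these markers in the regulators' differences was not tested.

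**Figure D4:**
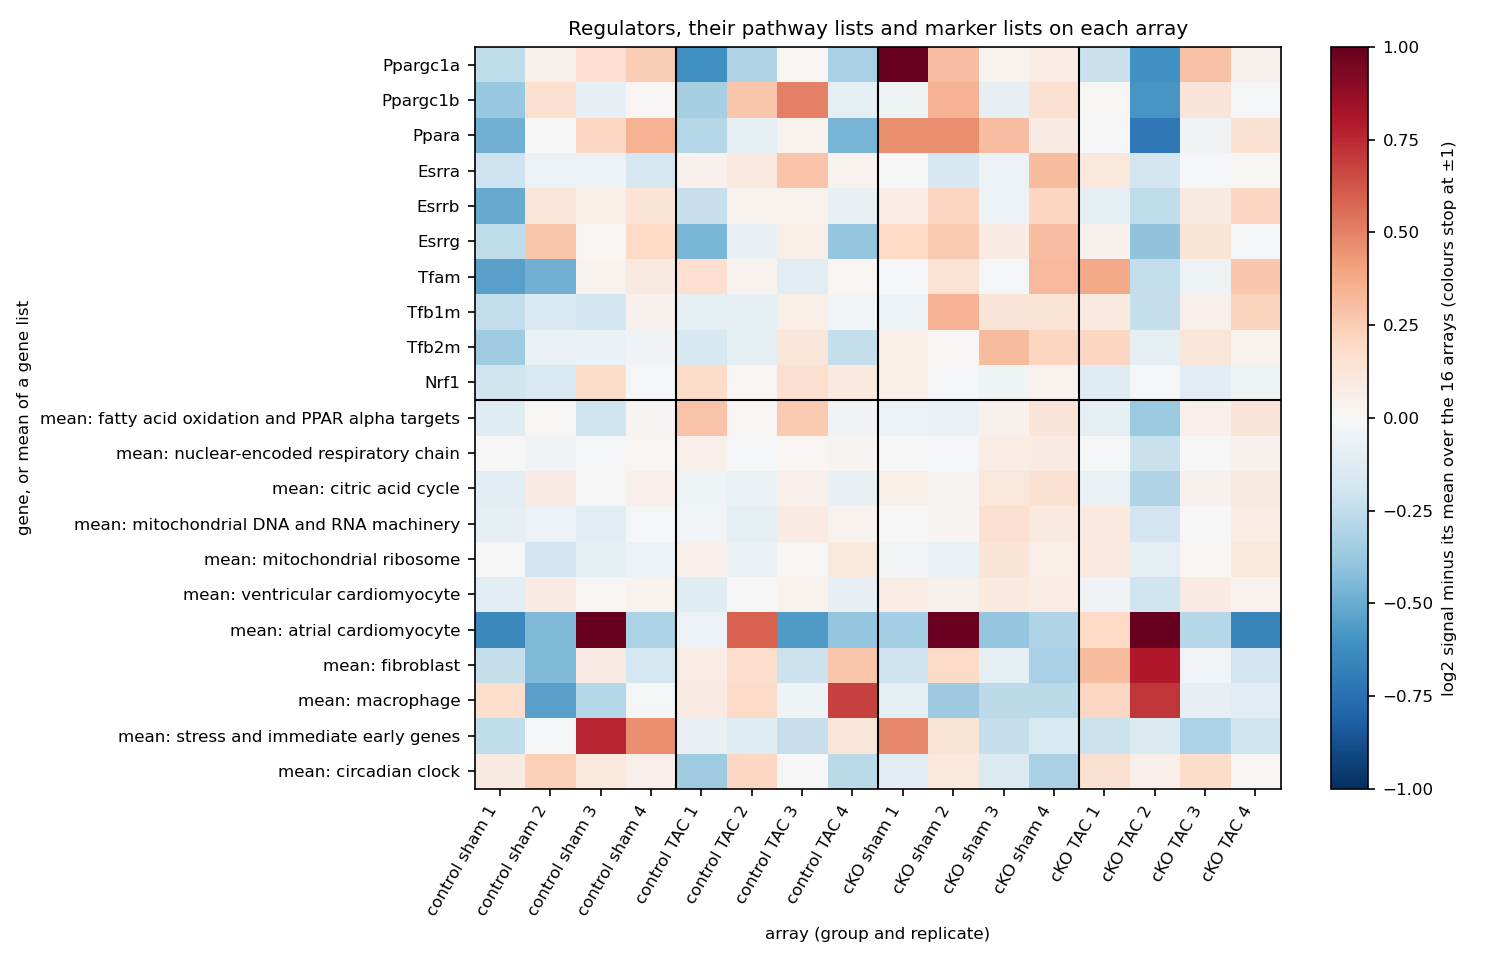
Each row is a regulator (top) or the mean of a gene list (bottom), each column an array, and the colour is the log2 signal minus the row's mean over the 16 arrays, with colours stopping at 1 in each direction. Control sham replicate 1 and cKO TAC replicate 2 are blue across nearly all regulator rows, and the latter is red for atrial, fibroblast and macrophage markers.

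Which regulators varied together from heart to heart was measured with the group means removed, over 16 arrays. Ppargc1a followed Ppara most closely (Pearson r = 0.679, permutation p = 0.00391, adjusted over the 9 relations 0.0352; Spearman rho = 0.714, permutation p = 0.00264, adjusted 0.0238). Leaving out the 2 arrays farthest from the median of Ppargc1a, cKO sham replicate 1 and cKO TAC replicate 2, gave r = 0.678. Esrrg (r = 0.583, adjusted permutation p = 0.0780; rho = 0.621, adjusted 0.0462) was next, followed by Esrrb (r = 0.536, adjusted permutation p = 0.0964) and Ppargc1b (r = 0.512, adjusted permutation p = 0.0964). Nrf1, Esrra and the 3 mitochondrial factors gave r between 0.08 and 0.23. Control sham replicate 1, where all regulators were low, enters these values. The permutations treated the values of all 16 arrays as freely exchangeable. Removing the group means leaves fewer independent values than arrays, so the permutation p-values above are too small. Whether any of these relations passes 0.05 is therefore not settled, and the coefficients are best read as a description.

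**Figure D5:**
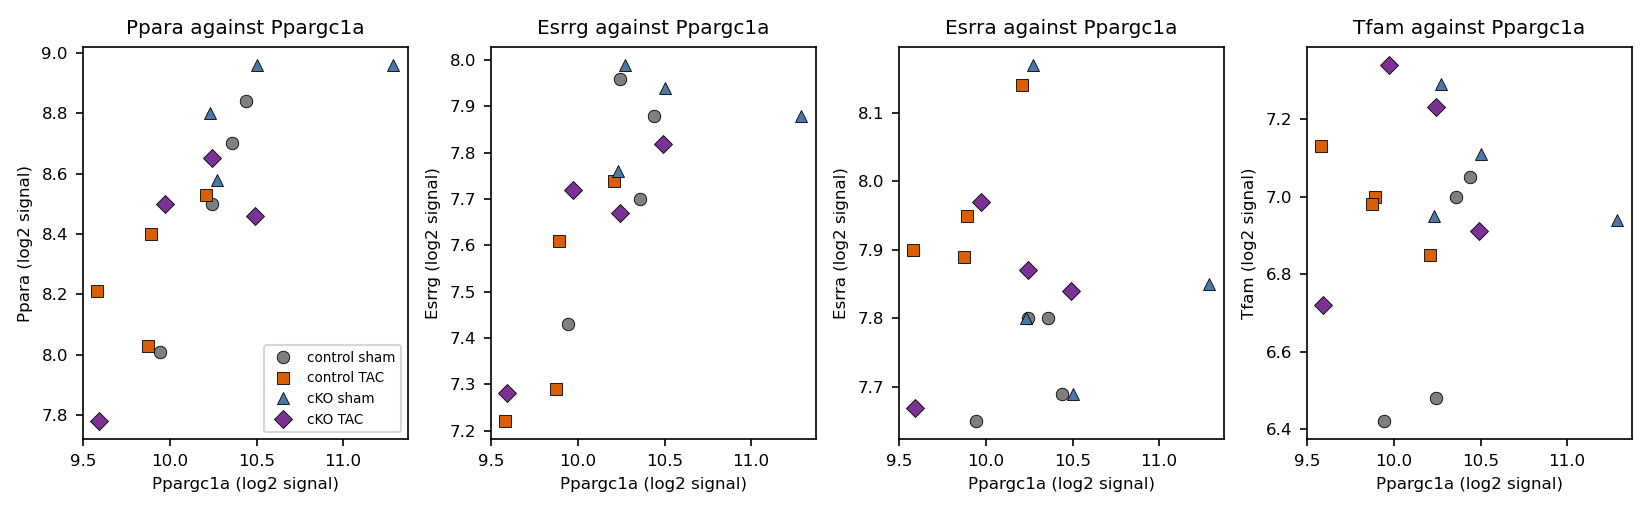
Log2 signal of Ppara, Esrrg, Esrra and Tfam against that of Ppargc1a, 1 point per heart, coloured by group. Ppara and Esrrg climb with Ppargc1a (r = 0.679 and 0.583 with the group means removed), whereas r is 0.18 for Esrra and 0.08 for Tfam.

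Across all 45 pairs the highest r, given as a description with no test, was that of Ppargc1b and Esrrg at 0.949, and the lowest that of Ppargc1b and Nrf1 at -0.14. Esrrb and Esrrg had 0.807, and Ppargc1b and Esrrb 0.766. The 16 arrays of each pair share their RNA and their normalization.

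Genes outside the group with the most similar pattern over the 16 arrays, group means removed, were listed by the highest r, again as a description. For Ppargc1a they were Noct (r = 0.906), which encodes nocturnin, Vcl (0.875), the gene of vinculin, and Cct7 (0.867), a chaperonin subunit. Esrrg was matched by Carm1 (0.959), an arginine methyltransferase, Tbc1d24 (0.956) and Ccdc97 (0.952). For Ppargc1b the genes were Marchf6 (0.938), the citric acid cycle gene Idh2 (0.927) and Carm1 (0.922). Ppara was followed by Wdr5 (0.933), Selenoi (0.909) and Scmh1 (0.893). Those of Esrra were Fem1a (0.901), the mitochondrial transporter gene Abcb8 (0.898) and Ttc17 (0.839), and those of Esrrb were Pmpca (0.928), a subunit of the mitochondrial processing peptidase, Pdk2 (0.913) and Zbtb39 (0.904). Tfb2m was matched by Grsf1 (0.895), whose protein binds mitochondrial RNA, Gpc4 (0.892) and Pacs1 (0.890). The top genes were Usf1 (0.904), Znrd2 (0.864) and Tada2b (0.853) for Tfam, Casd1 (0.879), Clybl (0.875) and Qdpr (0.863) for Tfb1m, and Rnf224 (0.845), Rnf2 (0.834) and Tmem178 (0.83) for Nrf1.

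Genes that these regulators are known to act on or with were counted from 7 lists, and 0 genes of any passed the limma threshold in any of the 7 comparisons. A further planned list, of mitochondrially encoded genes taken by the symbol prefix mt-, matched no probe set. Transcripts made from mitochondrial DNA were therefore not counted. Of all probe sets, 54.5% were positive for TAC in control hearts and 51.6% in cKO hearts. For cKO against control the share was 50.1% after sham and 47.9% after TAC, and for the interaction 46.5%. Among 29 tested genes of fatty acid oxidation and PPAR alpha targets, 28 had a positive TAC difference in control hearts (median 0.13, beside 0.015 and 54.5% for all probe sets), of which 7 had an unadjusted p under 0.05, beside 4.9% of all probe sets in that direction. Fabp3, the heart fatty acid binding protein, was at 0.23 ± 0.05 (adjusted p = 0.364), and Ehhadh, a peroxisomal oxidation enzyme, at 0.49 ± 0.13 (adjusted p = 0.405). In cKO hearts 9 of 29 were positive after TAC (median -0.10), 4 without cKO TAC replicate 4 (median -0.16), 16 without cKO TAC replicate 2 and 19 without the 6 arrays with Myl7 above 6. Acadm, the medium-chain dehydrogenase, was at -0.22 ± 0.09 (adjusted p = 0.726) and Echs1 at -0.20 ± 0.10 (adjusted p = 0.737).

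Between the genotypes the list was counted in each surgery group. After sham 23 of 29 genes had positive cKO differences (median 0.11), with Ehhadh at 0.40 ± 0.13 (adjusted p = 0.367) and Cd36, a fatty acid transporter, at 0.16 ± 0.07 (adjusted p = 0.435). After TAC 3 of 29 were positive (median -0.17), with the thioesterases Acot1 at -0.50 ± 0.14 (adjusted p = 0.563) and Acot2 at -0.34 ± 0.13 (adjusted p = 0.612), close paralogs whose signals may be mixed. That count of 3 became 0 without control TAC replicate 4, 7 without cKO TAC replicate 2 and 16 without the 6 arrays with Myl7 above 6, where the median was 0.01. The interaction was positive for 1 of 29 genes (median -0.25; 8 and -0.11 without those 6 arrays), with Acot1 at -0.66 ± 0.20 (adjusted p = 1).

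Mitochondrial ribosomal protein genes numbered 77. After TAC 69 were positive in control hearts (median 0.10) and 42 in cKO hearts (median 0.01), and 64 were positive for cKO against control after sham (median 0.11) and 46 after TAC (median 0.01). Both counts near the middle moved with the scaling and with single arrays. The 42 became 34 with median centring, 38 with quantile normalization, 31 without cKO TAC replicate 4 and 54 without cKO TAC replicate 2, and its median ran from -0.03 to 0.05. The 46 became 35 with quantile normalization and 32 without control TAC replicate 2. The 64 became 75 with median centring, which also moved the median of all probe sets from 0.0025 to 0.06, and 55 without control sham replicate 2. Mrpl43 (0.25 ± 0.08, adjusted p = 0.474) and Mrps23 (0.23 ± 0.07, adjusted p = 0.482) led in control hearts after TAC. Mrps30 (0.28 ± 0.09) and Mrpl22 (0.35 ± 0.12), both with adjusted p = 0.373, led between the genotypes after sham.

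Of 27 genes that copy, repair or process mitochondrial DNA and RNA, 26 had a positive difference between cKO and control sham hearts (median 0.14). For all probe sets the positive share was 50.1% and the median 0.0025. Rrm2b, a subunit of ribonucleotide reductase, was at 0.36 ± 0.12 (adjusted p = 0.373) and Elac2, which trims mitochondrial transfer RNA, at 0.27 ± 0.11 (adjusted p = 0.403). After TAC 17 of 27 were positive (median 0.01), 10 without cKO TAC replicate 1 (median -0.04) and 19 without cKO TAC replicate 2 (median 0.08). The TAC difference was positive for 22 of 27 in control hearts, with Elac2 and the thymidine kinase gene Tk2 both at 0.30 ± 0.11, and for 7 of 27 in cKO hearts, 4 without cKO TAC replicate 1 and 11 without cKO TAC replicate 2.

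In the nuclear-encoded respiratory chain 22 of 34 genes were positive after TAC in control hearts (median 0.02) and 5 of 34 in cKO hearts (median -0.09), 12 without cKO TAC replicate 2. With median centring the 22 became 29, and the 5 became 2. That scaling also moved the median of all probe sets, to 0.04 in control hearts and to -0.01 in cKO hearts. Sdha, a subunit of complex II, was at -0.29 ± 0.11 (adjusted p = 0.726) in the cKO. In the citric acid cycle 6 of 15 were positive in control and 0 of 15 in cKO hearts (median -0.14), with Fh1, the fumarase gene, at -0.30 ± 0.11 (adjusted p = 0.726). The 6 became 9 with median centring and 2 without control TAC replicate 3, and the 0 became 4 without the 6 arrays with Myl7 above 6. On cKO TAC replicate 2 the means of the respiratory chain (11.49), citric acid cycle (10.95) and fatty acid oxidation lists (9.63) were the lowest of all 16 arrays.

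Partners and upstream regulators gave 9 of 27 positive after TAC in control hearts (18 with median centring) and 6 of 27 in cKO hearts (4 with median centring, 11 without the 6 arrays with Myl7 above 6). The centred counts include the shift of all probe sets given above. Klf15, a factor linked to lipid metabolism of the heart, was at -0.36 ± 0.13 (adjusted p = 0.505) in control TAC hearts. Gabpa, a subunit of the factor NRF2 that binds promoters of mitochondrial genes, was at -0.26 ± 0.10 (adjusted p = 0.726) after TAC in the cKO and at 0.24 ± 0.10 (adjusted p = 0.411) between the genotypes after sham. Gabpb1, its partner, was at -0.24 ± 0.08 (adjusted p = 0.563) between the genotypes after TAC. Mitochondrial fusion and fission genes gave 7 of 10 positive in control hearts after TAC (4 with quantile normalization) and 2 of 10 in cKO hearts. Among 11 circadian clock genes the TAC difference had a median of -0.23 in control and 0.32 in cKO hearts, 0 passed the limma threshold, and the part of the time of collection in the regulators' values was not tested.

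Promoters of 9 of the 10 regulators were in the RefSeq table of GRCm38.p6, all but that of Ppargc1b, and the 250 bases before the start were searched on both strands, as were 32851 windows of all genes. The full palindromic NRF1 site was in Ppara and in 0.782% of all windows. Its core GCATGCGC, part of that site, was in Ppara and Esrra and in 2.26%. CCGGAAG, the core bound by the GABP factor, was in Tfam and in 6.91%. TGACG, the core of the cAMP response element, was in Ppargc1a, Ppara, Esrrb and Tfb1m and in 17.8%, while the full element TGACGTCA, which holds it, was in none of the 9 and in 1.55%. The receptor element AAGGTCA (4.08%) and the E-box CACGTG (6.02%) were in none of the 9, the MEF2 pattern was in Esrrg (3.20%), and GGGCGG, the SP1 box, was in 7 of 9 (32.7%). Several starts are listed for Esrrg, Nrf1 and Esrrb, and a match before any of them was counted. The shares are of single windows, not of genes, so genes with several starts had more chances of a match. For Ppargc1a only the start inside the gene, shown above, was searched. The stretches around the Esrra match (chr19:6921825-6921852, minus strand) and the Tfam match (chr10:71238075-71238101, minus strand), 34 and 47 bases before the start, are shown with the match in capitals, because they hold letters of the NRF1 and GABP motifs; a match is a description, not a binding site.
Esrra: cccctgttttGCATGCGCaggccggccc
Tfam: ctgccgcggaCCGGAAGtccgggcttc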

How the data were processed

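Each of the 16 heart RNA samples was hybridised to 1 Affymetrix array, after RNA extraction with a fibrous tissue kit. The values as deposited are on a log2 scale (35556 probe sets), as their range shows; the submitters' processing notes name MAS5 without a version, and whether the authors scaled arrays to each other, and any genome build, are not given in the sources used here. Array medians lay between 4.85 and 4.97; the number of arrays limits the precision. A platform table named 21789 probe sets with 1 gene, 1621 with several and left 12146 unlisted; the last 2 kinds name no gene here.

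The 21333 probe sets with a mean above 4.37 (the 40th percentile) were fitted with limma 3.58.1 (R 4.3.3; lmFit, eBayes with trend, 4 group means), with Benjamini-Hochberg adjustment over all of them at 0.05. Correlations used permutation tests with 100000 resamples (scipy 1.17.1), and the fit was tested on simulated data. The members and lists were chosen with earlier results of these data known. For each comparison the 3 members of smallest p are named, and for each list the 2 genes of smallest p. Samples with the same replicate number did not deviate together over the fitted probe sets (r from -0.20 to 0.19). The number was therefore treated as only a name, which the labels do not settle. The labels number the samples of a group without saying that each is a separate animal, so p-values measure the spread between these samples, which may be technical. Alternatives covered scaling, filter, weights, trend, probe set choice, the replicate block and single arrays; leaving out the high-Myl7 or high-Atf3 arrays was chosen after seeing the data.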

Additional observations from a re-analysis of the deposited data

Results flagged for a closer look

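In a check of whether the lowest or highest of 4 hearts stands far from the others, run on 40 combinations of regulator and group, Esrrb at 5.81 and Tfb2m at 8.68 were apart, both in control sham replicate 1. Chance sets about 1 in 20 such groups apart. The Nrf1 response to TAC was positive in control and negative in cKO hearts, a difference of -0.2425 between the genotypes (limma interaction, adjusted p = 1).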

How the results depend on the processing

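The count of regulators past the threshold was 0 under every alternative run. Counts over all probe sets changed, and the cause was not tested. TAC in control mice (0) gave 5 without the low-signal filter, 1 from only the groups compared and 1 when the high-Atf3 arrays were left out; TAC in cKO mice (0) gave 1 from only the groups compared. The cKO difference after sham (5) gave 1 with array weights, 3 without the trend and from only the groups compared, and 0 with the 60th percentile filter, probe set means, median centring, the replicate block, and without the high-Atf3 or the high-Myl7 arrays. After TAC (1) it gave 2 with array weights or quantile normalization and 0 without the trend, from only the groups compared, and without the high-Atf3 or high-Myl7 arrays. TAC averaged over genotype (0) gave 1 without the filter. The averaged cKO difference (4) gave 9 with the 60th percentile filter, 8 with probe set means or quantile normalization, 2 with median centring, without the trend and with the replicate block, and 1 without the filter or the high-Myl7 arrays. Leaving out each array gave 0 to 2 and 0 to 1 for TAC in control and cKO mice, 0 to 27 and 1 to 2 for the cKO after sham and TAC, and 0 to 1 and 1 to 81 for the averaged comparisons; both 27 and 81 came without control sham replicate 4. Among regulators, the TAC difference of Ppara in controls turned to 0.0375 when the high-Atf3 arrays were left out, with only control sham replicates 1 and 2 remaining as baseline. The cKO difference of Tfam after TAC ranged from -0.037 to 0.17 over left-out arrays. The mean Ppargc1a level was 9.04 by its other probe set. With group means kept, the correlation with Ppargc1a was -0.016 for Esrra, -0.028 for Nrf1 and 0.749 for Esrrg. The replicate block changed no call of a regulator.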
